A study of Homo sapiens with 6 samples.

Results

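The genes described here encode subunits of voltage-gated calcium channels, voltage-gated sodium channels and potassium channels. They were taken from the deposited table of normalized counts by symbol alone, as the CACNA1, CACNA2D, CACNB and CACNG genes, the SCN genes ending in A or B, and the KCN genes, with antisense and intronic transcripts left out. The rule found 112 of the 30267 genes in the table, of which 22 belong to calcium, 12 to sodium and 78 to potassium channels. CACNA1C, KCNA3 and KCNJ16 were among the 32 kidney-related channel genes listed for description but had no row in the deposited table, so that 29 of the 32 could be described.

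The question of the experiment was what RNF25, a RING-type ubiquitin ligase, does in renal cell carcinoma, and RNA-seq was made from SW839, an established renal cell carcinoma line, in 2 groups of 3 libraries. The shRNF25 group carried a short hairpin RNA against RNF25 and the shControl group the pLKO vector, both delivered by lentivirus according to the study's methods. The labels call the libraries biological triplicates, name 1 cell line and give a single hairpin name, so that effects of this hairpin other than the loss of RNF25 cannot be told apart from it. The library names of the shRNF25 group form 1 numbered series, and those of the shControl group do not. The treatment text speaks of the shRNF25 plasmid for every sample, controls included, so the groups rest on the titles and genotype labels.

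Ion channels are membrane pores that open to let a chosen ion run down its gradient. Calcium and sodium channels have 1 large pore-forming protein that senses voltage and smaller partner subunits that set its trafficking and gating, whereas potassium channels are built from several pore subunits and fall into voltage-gated, calcium- or sodium-activated, inward-rectifier and tandem-pore-domain classes. In kidney epithelium, potassium channels recycle potassium at the cell membrane, hold the membrane potential and thereby drive the transport of other solutes, while most voltage-gated sodium and calcium channels are better known from nerve and muscle.

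The libraries held between 18647460 and 19943154 reads on genes. More genes had at least 1 read in the shRNF25 libraries, from 26581 to 27052, than in the shControl libraries, from 25247 to 25683. Among the channel genes the same count was 94, 96 and 96 in shControl and 103, 104 and 101 in shRNF25. The part of this difference in detection in the results for genes with few reads was not tested. RNF25 itself, at chr2:218663864-218672411 on the minus strand of GRCh38, had normalized counts of 694, 534 and 536 in shControl and 214, 246 and 265 in shRNF25 (log2 fold change -1.27, SE 0.15, adjusted p = 0.000585, limma). The groups did not overlap and were in the order that their labels give. The epithelial keratin KRT8 had 22206, 31324 and 31848 in shControl and 35088, 36460.0 and 38009 in shRNF25, and the kidney lineage factor PAX8 had 124, 118 and 140.3 in shControl and 95.7, 76.7 and 109.6 in shRNF25.

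Of the 112 channel genes, 56 reached the limit for testing (10 or more normalized counts in 3 or more libraries) and 56 did not. A gene was called when its Benjamini-Hochberg adjusted p from limma, over all 16554 genes tested, was below 0.05 and its fold change was at least 1.5. Of the tested channel genes, 15 were called higher in shRNF25, which was 26.8% beside 8.65% of all tested genes, and 6 were called lower, which was 10.7% beside 7.1% of all tested genes. Since a gene can pass the limit through the group in which it is high, the same counts were made over genes that reached 10 in at least 1 library of each group: 12 of 51 channel genes (23.5%) were then called higher, beside 7.45% of all such genes, and 4 (7.84%) lower, beside 6.83%. The higher share thus stood above the share of all genes in both counts, and the lower share stood near it, without a test of either difference. KCND2, KCNT2 and SCN2A reached the limit through shRNF25 alone and CACNA1S and KCNJ15 through shControl alone. In 35 of the 56 tested channel genes (62.5%) the values of the groups were fully apart, beside 42.5% of all tested genes. All 21 called genes were among these 35, but they were chosen on the same values, so this adds no support. The count of 35, and the median and shares by ion that follow, include the genes that reached the limit through 1 group alone. The median log2 fold change was 0.32 over the tested channel genes and -0.01 over all tested genes. By ion, 18.18% of the tested calcium, 50% of the sodium and 41.03% of the potassium genes were called in either direction. The share over all tested genes was 15.75%. The counts by class given below rest on few tested genes and were not compared with this share by a test.

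Every called gene kept its direction in all alternative fits that tested it. In 9 of them, which include CACNA1S, KCND2, KCNN4, KCNQ1, KCNT2, KCNU1 and SCN2A, the call was also kept whichever library was left out. The other 12 lost the call without at least 1 library, and the values are given with the genes described. The fits that left out 1 library kept the 16554 genes that had reached the limit with all 6 libraries. CACNA1S, KCND2, KCNT2 and SCN2A had reached it through the 3 libraries of 1 group alone. Without 1 of those libraries they would have fallen below the limit, so a kept call there rests on the fixed set of genes. Without shRNF25 replicates 1, 2 and 3 the channel genes called higher numbered 7 each time and those called lower 4, 3 and 3, while over all genes the calls fell from 1432 to 748, 824 and 831 higher and from 1175 to 813, 827 and 823 lower.

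**Figure D1:**
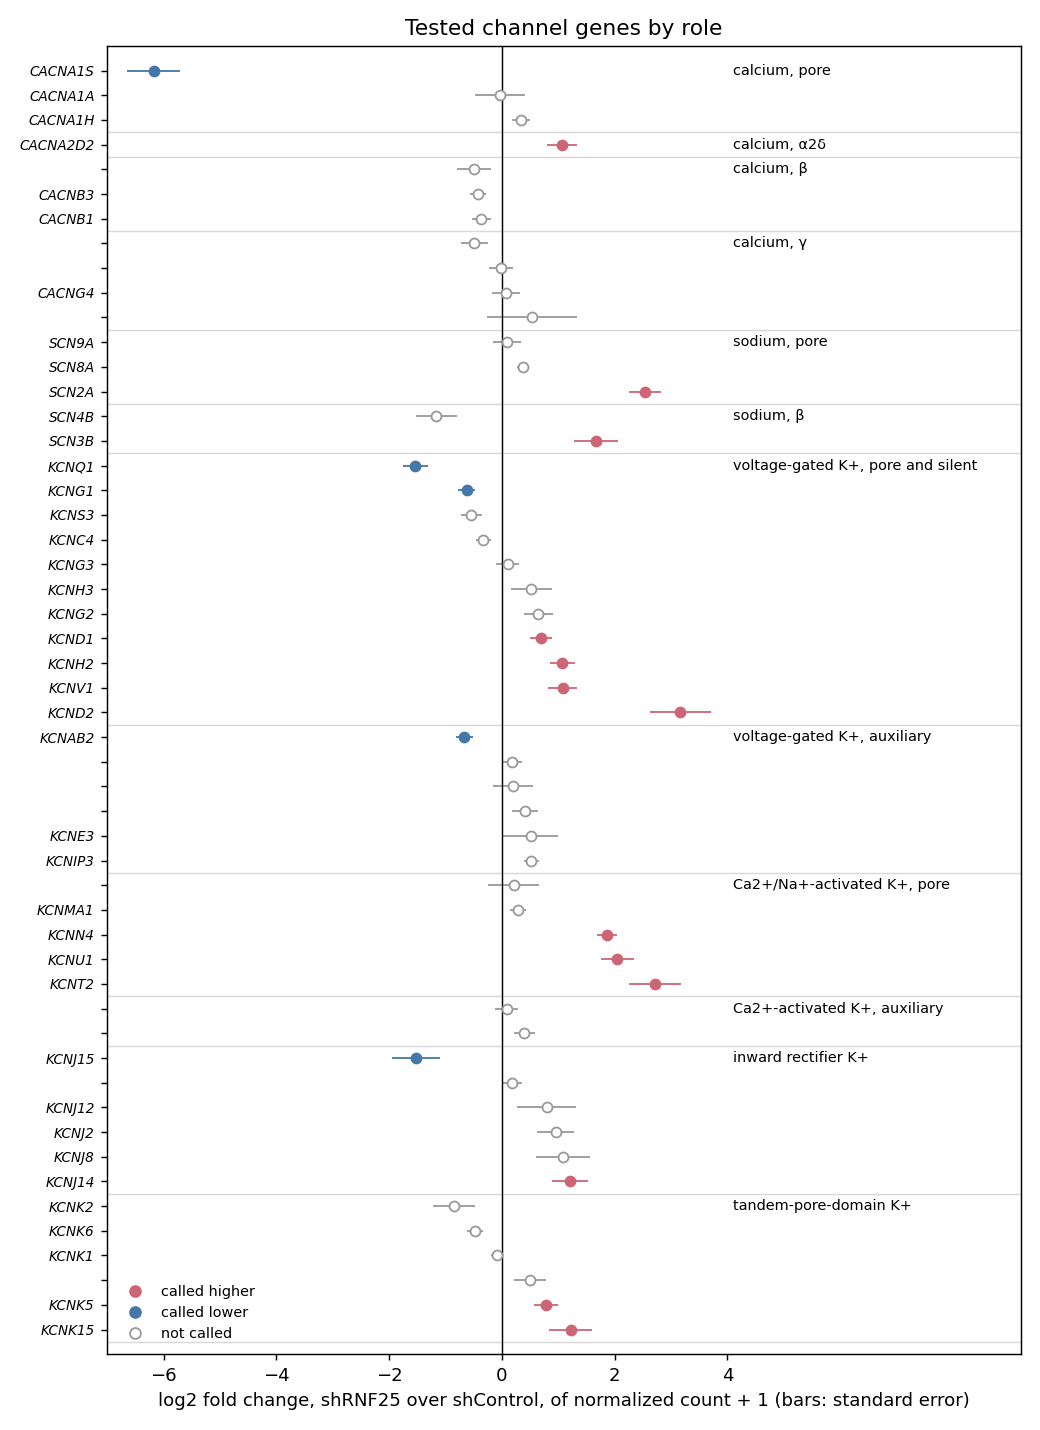
The horizontal axis gives the log2 fold change of tested channel genes in shRNF25 against shControl (limma, bars of 1 standard error), and the rows are grouped by the role of the subunit, with called genes in color and genes not described in the text left without a name. CACNA1S stands alone at -6.18, and KCND2 lies at 3.17 on the other side.

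The gene with the most reads among those that rose was KCNN4, the intermediate-conductance calcium-activated potassium channel, and the gene with the largest fall was CACNA1S, the pore of the skeletal muscle L-type calcium channel. KCNN4, at chr19:43766533-43781261 on the minus strand, had normalized counts of 429, 697 and 516 in shControl and 2223, 1857 and 1789 in shRNF25, a 3.58-fold rise of the mean (log2 fold change 1.86, SE 0.18, adjusted p = 0.000194, limma). Every shRNF25 library stood above every shControl library, and the lowest of the former was more than 2 times the highest of the latter. CACNA1S, at chr1:201039512-201112566 on the minus strand, had 79.6, 90.3 and 149 in shControl and 0, 0 and 1.91 in shRNF25 (log2 fold change -6.18, SE 0.48, adjusted p = 6.52e-05, limma). The control libraries all held the transcript at a moderate level, and in shRNF25 only replicate 3 held any read of it. Over the 3 libraries of each group this was 298 reads against 2, a ratio of 172 of shControl over shRNF25 with an exact 95% counting interval from 47.1 to 1423, which covers counting error only.

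The sequences around the annotated starts are shown for KCNN4 and CACNA1S because they mark the largest rise by reads and the largest fall, and for KCNJ15, an inward rectifier that also fell, because it is the single called gene whose window matched an AP-1 site. They come from RefSeq on build GRCh38.p14, run 5′ to 3′ on the strand of the gene, and hold 250 bases before the start and 50 after it. Capitals mark matches, on either strand, to the κB consensus, the AP-1 site TGANTCA, the cAMP response element TGACGTCA, TTCAGCACC (the left part of the RE1 element bound by REST), the GC box GGGCGG and the TATA box TATAAA. The windows lie at chr19:43780924-43781223 (minus), chr21:38272258-38272557 (plus) and chr1:201112377-201112676 (minus). The KCNJ15 window lies within the span of that gene in GENCODE 29, chr21:38155549-38307357, which begins upstream of the window. Which start of KCNJ15 the cells use is not known from these data.
KCNN4 promoter: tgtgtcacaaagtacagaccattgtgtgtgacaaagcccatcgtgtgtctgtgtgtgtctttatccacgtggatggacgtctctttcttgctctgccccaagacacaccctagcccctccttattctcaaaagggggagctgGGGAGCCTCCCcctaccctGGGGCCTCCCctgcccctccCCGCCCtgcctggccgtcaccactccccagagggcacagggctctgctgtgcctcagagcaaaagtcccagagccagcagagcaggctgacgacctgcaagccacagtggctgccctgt
KCNJ15 promoter: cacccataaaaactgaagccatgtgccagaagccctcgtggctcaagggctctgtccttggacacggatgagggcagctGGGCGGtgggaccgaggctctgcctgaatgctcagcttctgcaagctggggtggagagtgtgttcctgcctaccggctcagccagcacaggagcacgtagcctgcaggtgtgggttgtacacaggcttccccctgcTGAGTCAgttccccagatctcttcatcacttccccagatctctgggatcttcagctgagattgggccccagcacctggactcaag
CACNA1S promoter: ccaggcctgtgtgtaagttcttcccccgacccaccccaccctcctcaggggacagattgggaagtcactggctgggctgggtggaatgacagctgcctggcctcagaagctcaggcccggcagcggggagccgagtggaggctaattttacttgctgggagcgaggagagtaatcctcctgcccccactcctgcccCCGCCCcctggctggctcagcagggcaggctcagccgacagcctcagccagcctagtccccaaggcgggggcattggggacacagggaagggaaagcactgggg
The KCNN4 window held 3 κB matches, a pair of which overlap each other, and 1 GC box. The KCNJ15 window held 1 AP-1 site and 1 GC box, and the CACNA1S window 1 GC box only among these letters.

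Windows were available for 77 of the 112 channel genes, 122 windows in all since some genes have several starts, and were set beside all 35116 windows of the same length. The κB consensus was found in 12.3% of the channel windows and 11.3% of all windows, the AP-1 site in 7.38% and 7.71%, and the cAMP response element in 0.82% and 1.85%. The GC box was found in 54.9% and 45%, the TATA box in 7.38% and 11.5%, and the RE1 part in 1.64% and 0.376%, which was 2 of the channel windows. Of the called genes, 12 had a window, 9 of them higher and 3 lower in shRNF25. GC boxes stood in 10 of these 12, TATA boxes in 4, κB matches in 4 (KCND1, KCNH2, KCNJ14 and KCNN4) and an AP-1 site in 1, beside 48.3%, 14%, 13.3% and 9.37% of all 27305 genes with a window. The other motifs were found in none of the 12. These are matches of letters and do not show binding.

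Among the calcium channel genes, 11 of 22 were tested, with 1 called lower and 1 called higher. The pore genes divided into CACNA1S, described above, and genes with no call. CACNA1H, a T-type channel that opens at low voltage, had 91.8, 91.3 and 106 in shControl and 128, 116 and 121 in shRNF25 (log2 fold change 0.34, SE 0.15, adjusted p = 0.145), and CACNA1A, the P/Q-type pore of presynaptic terminals, had 12.2, 8.21 and 25.9 in shControl and 21, 11.1 and 10.5 in shRNF25 (log2 fold change -0.03, SE 0.45, adjusted p = 0.967). For CACNA1H the groups did not overlap but the adjusted p missed the threshold, and for CACNA1A they overlapped and the sign of the difference changed with the library left out. The kidney-related pores CACNA1D and CACNA1G did not reach the limit for testing, with at most 2 reads of CACNA1D and at most 10 of CACNA1G in any library.

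CACNA2D2, an α2δ subunit that carries calcium channel pores to the cell surface, had normalized counts of 47.5, 52.3 and 96.1 in shControl and 155, 115 and 127 in shRNF25 (log2 fold change 1.07, SE 0.27, adjusted p = 0.0212, limma). All 3 shRNF25 libraries stood above all 3 controls, with shControl replicate 3 nearest to them. The adjusted p was 0.0729 without shControl replicate 2, and 0.104, 0.0532 and 0.0708 without shRNF25 replicates 1, 2 and 3. It shares 606 exonic bases, 9.59% of its exon sequence, with CYB561D2 on the opposite strand, which had 175, 336 and 360.5 in shControl and 235, 251 and 256 in shRNF25 and was not called. The related CACNA2D1 had at most 5 reads in any library.

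The cytoplasmic β subunits, which fold onto the pore and modulate its opening, gave 3 tested genes and no call by limma, edgeR or DESeq2, with 1 of the 3 at an unadjusted p below 0.05. CACNB3 had 689.8, 886 and 958 in shControl and 614, 640.0 and 622 in shRNF25 (log2 fold change -0.42, SE 0.14, adjusted p = 0.0594), without overlap between the groups. Its adjusted p was 0.0387 with DESeq2 and 0.000826 without shControl replicate 1, at a log2 fold change of -0.56, still under the required fold. CACNB1 had 233, 306 and 352 in shControl and 205, 251 and 229 in shRNF25 (log2 fold change -0.36, SE 0.17, adjusted p = 0.169), and without shControl replicate 1 an adjusted p of 0.0108 and a log2 fold change of -0.53. None of the 4 tested γ genes was called by limma, edgeR or DESeq2 either, and none had an unadjusted p below 0.05. CACNG4, which is also known as a partner of AMPA-type glutamate receptors, had 180.2, 144 and 91.7 in shControl and 174, 134 and 119 in shRNF25, and its spread among the controls was larger than the difference between the groups.

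The sodium channel genes were tested for 6 of 12, with 3 called higher by limma. SCN2A, a pore of central neurons, had normalized counts of 7.74, 5.13 and 7.55 in shControl and 53.8, 43.4 and 36.2 in shRNF25, a 6.53-fold rise (log2 fold change 2.54, SE 0.29, adjusted p = 0.000479). The lowest shRNF25 value lay above the highest control value by more than 4 times, and the call was kept whichever library was left out. The neighboring gene SCN3A had too few reads to be tested and values of 4.42, 2.05 and 1.08 in shControl and 8.2, 27.7 and 10.5 in shRNF25, without overlap.

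SCN8A, also a neuronal pore and by far the most abundant sodium channel transcript here, had 862, 859.8 and 942 in shControl and 1225, 1104 and 1119 in shRNF25. Its log2 fold change of 0.37 (SE 0.11, adjusted p = 0.035) passed the p threshold but not the fold of 1.5, and the adjusted p rose to between 0.0765 and 0.173 without shControl replicate 2 or any 1 of the shRNF25 libraries. SCN9A, the pore of peripheral sensory neurons, had 120.5, 94.4 and 194 in shControl and 150.3, 126 and 139 in shRNF25 (log2 fold change 0.09, SE 0.25, adjusted p = 0.835), with all 3 shRNF25 values inside the range of the controls.

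The β subunits of sodium channels are single-pass membrane proteins that speed gating and also act as adhesion molecules. SCN3B had 11.1, 4.1 and 4.32 in shControl and 21.9, 22.2 and 19.1 in shRNF25 (log2 fold change 1.67, SE 0.39, adjusted p = 0.0156), higher in every shRNF25 library than in any control. Without shRNF25 replicates 1, 2 and 3 its adjusted p was 0.0728, 0.0677 and 0.0545. SCN4B went the other way, at 17.7, 20.5 and 21.6 in shControl and 12.8, 9.23 and 4.77 in shRNF25, and was not called (log2 fold change -1.16, SE 0.37, adjusted p = 0.0508). Without shControl replicate 1 its adjusted p was 0.0435 and its log2 fold change -1.24.

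Voltage-gated potassium channels were the largest class, with 14 of 30 pore and silent-subunit genes tested, 5 called higher and 3 lower. Silent subunits form no channel alone but join other pore subunits and change their voltage range, and they were called in both directions. KCNV1 had 16.6, 22.6 and 29.1 in shControl and 44.6, 45.2 and 55.3 in shRNF25 (log2 fold change 1.08, SE 0.26, adjusted p = 0.0169), higher in every shRNF25 library. Its adjusted p was 0.062, 0.0613 and 0.0896 without shRNF25 replicates 1, 2 and 3. KCNG1 had 466, 654 and 495 in shControl and 346, 370.3 and 323 in shRNF25 (log2 fold change -0.62, SE 0.15, adjusted p = 0.0187), lower in every shRNF25 library. The KCNG1 call was lost without shControl replicate 2, at a log2 fold change of -0.47, and without shRNF25 replicates 1, 2 and 3, at adjusted p of 0.0808, 0.0568 and 0.0939. It was also lost when the libraries were rescaled on the median ratio, at a log2 fold change of -0.55, and under quantile normalization, at an adjusted p of 0.0265 and a log2 fold change of -0.57.

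KCNS3, the most abundant silent subunit per length, had 547, 569 and 349 in shControl and 314, 329 and 337 in shRNF25 and was not called (log2 fold change -0.55, SE 0.19, adjusted p = 0.0665). shControl replicate 3 stood apart from the other controls and near the shRNF25 libraries. Without it the adjusted p was 0.00343 and the log2 fold change -0.77, and with DESeq2 on all 6 libraries the adjusted p was 0.0249. KCNF1 did not reach the limit for testing, with 2.21, 1.03 and 2.16 in shControl and 13.7, 15.7 and 7.62 in shRNF25, the 3 shRNF25 values being above all controls. KCNG3 had 40.9, 40 and 42.1 in shControl and 39.2, 41.6 and 52.4 in shRNF25, a difference smaller than the spread among the shRNF25 libraries. In the wider class of pore and silent-subunit genes, KCNC4, KCNG2 and KCNH3 were not called, with log2 fold changes of -0.33 in KCNC4, 0.65 in KCNG2 and 0.53 in KCNH3. The groups did not overlap for KCNC4 and KCNG2 and overlapped for KCNH3.

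The KCNQ channels conduct the slow M-type and cardiac repolarizing currents, and KCNQ1 is also an epithelial channel of the kidney tubule. KCNQ1 had normalized counts of 95.1, 120.0 and 113 in shControl and 31.9, 49 and 32.4 in shRNF25, a fall of the mean by 2.9 times (log2 fold change -1.53, SE 0.22, adjusted p = 0.00162). The groups were far apart, and the call was kept in all 16 alternatives. KCNQ1 spans chr11:2444684-2849110 and shares 121 exonic bases with the antisense transcript KCNQ1OT1, which had 314, 247 and 377 in shControl and 362, 360.2 and 327 in shRNF25 and was not called (log2 fold change 0.18, adjusted p = 0.469). KCNQ3 and KCNQ5 had at most 6 reads in any library.

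Among the A-type channels, which inactivate quickly, KCND1 had 65.2, 53.4 and 66.9 in shControl and 115, 105 and 82 in shRNF25 (log2 fold change 0.69, SE 0.19, adjusted p = 0.0339) and KCND2 had 0, 2.05 and 0 in shControl and 10.9, 11.1 and 14.3 in shRNF25 (log2 fold change 3.17, SE 0.54, adjusted p = 0.00386). Both were called higher, without overlap between the groups. KCND2 had 2 reads in the controls together and 39 in shRNF25, a ratio of 16.9 with an exact 95% counting interval from 4.39 to 145. The KCND1 call was lost without shControl replicate 2 at an adjusted p of 0.089, and without shRNF25 replicates 1 and 2 at 0.157 and 0.137. It was also lost under quantile normalization, at 0.0565, and with no filter on low values, at 0.0583. KCNH2, the rapidly activating cardiac repolarizing channel that is also found in carcinoma cells, had 49.7, 49.2 and 35.6 in shControl and 91.1, 80.3 and 115 in shRNF25 (log2 fold change 1.07, SE 0.22, adjusted p = 0.00831). Its adjusted p without shRNF25 replicate 3, the highest library, was 0.0524. The related KCNH1 had at most 3 reads in any library.

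Auxiliary subunits of voltage-gated potassium channels gave 6 tested genes of 11, with 1 called lower. KCNAB2, a cytoplasmic β subunit with an aldo-keto reductase fold, had 659, 964 and 846 in shControl and 561, 475 and 503 in shRNF25 (log2 fold change -0.67, SE 0.15, adjusted p = 0.0152), lower in every shRNF25 library. Without shControl replicate 2, the highest control, the log2 fold change was -0.54, below the required fold, and without shRNF25 replicates 2 and 3 the adjusted p was 0.0771 and 0.0688. KCNIP3, a calcium-binding partner of A-type channels that is also known as a transcriptional repressor, had 187, 229 and 194 in shControl and 318, 276 and 283 in shRNF25. It passed the p threshold but not the fold (log2 fold change 0.53, SE 0.14, adjusted p = 0.0265), and without shRNF25 replicates 1, 2 and 3 the adjusted p was 0.135, 0.0846 and 0.0973. The single-span partners were scarce: KCNE3 had 11.1, 7.18 and 3.24 in shControl and 5.47, 12.9 and 12.4 in shRNF25 and was not called (adjusted p = 0.492), and KCNE1 and KCNE4 were not tested.

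**Figure D2:**
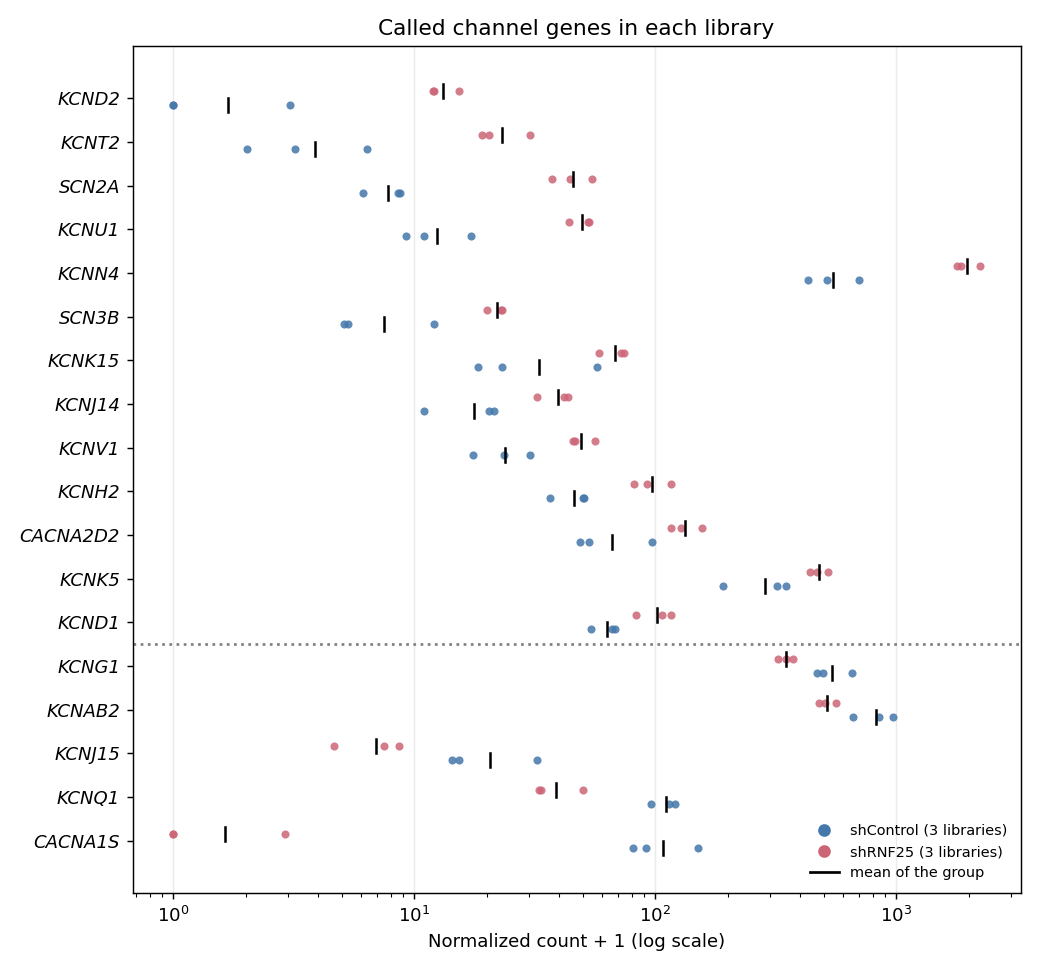
The horizontal axis gives the normalized count plus 1 on a log scale, and each row is 1 called channel gene with a point for each of its 3 shControl (blue) and 3 shRNF25 (red) libraries and a black bar at each group mean. The 2 groups do not overlap in any row, and KCNK15 has its highest control, 56.1, next to its lowest shRNF25 value, 57.2.

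The channels opened by internal calcium or sodium, counted together with their relative KCNU1, gave 5 tested pore genes of 8, with 3 called higher. Besides KCNN4 these were KCNT2 and KCNU1. KCNT2, a sodium-activated channel, had 2.21, 1.03 and 5.4 in shControl and 29.2, 19.4 and 18.1 in shRNF25 (log2 fold change 2.71, SE 0.47, adjusted p = 0.00389), and KCNU1, a relative of the large-conductance channel known from sperm, had 9.95, 8.21 and 16.2 in shControl and 51.9, 51.7 and 42.9 in shRNF25 (log2 fold change 2.05, SE 0.29, adjusted p = 0.00153). All shRNF25 libraries stood above all controls for both genes and both calls were kept whichever library was left out.

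KCNMA1, the large-conductance calcium-activated pore, had 1865, 1692 and 2521 in shControl and 2400.1, 2479.6 and 2439 in shRNF25 and was not called (log2 fold change 0.29, SE 0.15, adjusted p = 0.194). The overlap came from shControl replicate 3, and without it the log2 fold change was 0.46 and the adjusted p 0.0162, which still lay under the required fold. Its partner subunits KCNMB3 and KCNMB4 were not called either. The small-conductance relatives of KCNN4 were scarce, with at most 15 reads in any library for KCNN1, 7 for KCNN3 and 2 for KCNN2. The summed normalized count of the 8 pore genes was 2323, 2417 and 3104 in shControl and 4728, 4435 and 4308 in shRNF25, of which KCNN4 made up most of the difference.

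Inward rectifiers pass potassium more easily into the cell than out of it and set the resting potential, and 6 of their 15 genes were tested. KCNJ14 was called higher at 9.95, 20.5 and 19.4 in shControl and 41, 42.5 and 31.5 in shRNF25 (log2 fold change 1.21, SE 0.31, adjusted p = 0.0245), and KCNJ15, which is known from kidney, was called lower at 14.4, 13.3 and 31.3 in shControl and 3.65, 6.46 and 7.62 in shRNF25 (log2 fold change -1.52, SE 0.42, adjusted p = 0.0309). Without shRNF25 replicates 1, 2 and 3 the adjusted p of KCNJ14 was 0.104, 0.102 and 0.0562. That of KCNJ15 was 0.122, 0.0779 and 0.0593 without the same libraries, 0.0719 without shControl replicate 3 and 0.0511 with no filter on low values. KCNJ14 shares 350 exonic bases, 8.07% of its exon sequence, with GRWD1 on the same strand, so that reads there cannot be assigned to 1 of them. GRWD1 was far more abundant, at 1142, 1482 and 1353 in shControl and 1416, 1545 and 1644 in shRNF25, and was not called (log2 fold change 0.22, adjusted p = 0.25).

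KCNJ2, a strong rectifier, had 24.3, 11.3 and 18.4 in shControl and 41, 37.9 and 25.7 in shRNF25 (log2 fold change 0.95, SE 0.33, adjusted p = 0.0669), and KCNJ8, a pore of ATP-sensitive channels, had 12.2, 4.1 and 3.24 in shControl and 16.4, 9.23 and 14.3 in shRNF25 (log2 fold change 1.09, SE 0.48, adjusted p = 0.138). Neither was called with all 6 libraries. Without shControl replicate 1, the highest control for both, the adjusted p was 0.0171 for KCNJ2 and 0.0144 for KCNJ8, with log2 fold changes of 1.19 and 1.59. KCNJ12 had 11.1, 21.6 and 68 in shControl and 47.4, 42.5 and 45.8 in shRNF25, with a wide spread among the controls, and without shControl replicate 3 its adjusted p was 0.0115 and its log2 fold change 1.49. It shares most of its coding sequence with KCNJ18, so the division of reads between these 2 genes is uncertain. KCNJ1 and KCNJ10, rectifiers of kidney tubules, had at most 3 and 9 reads in any library.

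Tandem-pore-domain channels carry the leak current of the resting cell, and 6 of their 12 genes were tested, with 2 called higher. KCNK5, a pH-sensitive channel of kidney tubules, had 189, 319 and 346 in shControl and 518, 438 and 468 in shRNF25 (log2 fold change 0.78, SE 0.22, adjusted p = 0.0317). Its groups did not overlap, but the call was lost without shControl replicate 1, at a log2 fold change of 0.51, and without shRNF25 replicates 1, 2 and 3, at adjusted p of 0.132, 0.0785 and 0.101. KCNK15 had 22.1, 17.4 and 56.1 in shControl and 72.9, 71.1 and 57.2 in shRNF25 and passed the threshold narrowly (log2 fold change 1.22, SE 0.38, adjusted p = 0.0499). It lost the call in 10 of 16 alternatives, among them edgeR at an adjusted p of 0.0644. Without shControl replicates 1 and 2 its adjusted p was 0.0685 and 0.14, and without shRNF25 replicates 1, 2 and 3 it was 0.164, 0.145 and 0.104. RIMS4, which lies opposite 19.5% of the KCNK15 exon sequence, had 0, 0 and 0 in shControl and 10, 5.54 and 4.77 in shRNF25.

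KCNK6 had 354, 389 and 459.8 in shControl and 274, 283 and 301 in shRNF25, without overlap between the groups. It passed the p threshold but not the fold (log2 fold change -0.48, SE 0.14, adjusted p = 0.0351), and its adjusted p lay between 0.0648 and 0.146 without shControl replicate 2 or 3 or any 1 of the shRNF25 libraries. KCNK1, a weakly conducting channel of kidney epithelium, had 1037, 935 and 1012 in shControl and 984, 909 and 906 in shRNF25 and was not called (log2 fold change -0.09, SE 0.10, adjusted p = 0.566). KCNK2, a mechanically gated channel, had 17.7, 12.3 and 15.1 in shControl and 8.2, 12 and 4.77 in shRNF25 and was not called either (adjusted p = 0.139). KCNK3 had at most 5 reads in any library.

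Levels between genes were compared as normalized count per kb of the longest annotated transcript, given as mean ± SD of 3 libraries. This length was 12071 bases for KCNMA1 and 2244 for KCNN4. The transcripts that SW839 cells make are not known from these data, so ranks between genes depend on this choice of length, which the SDs do not cover. KCNN4 stood at 244 ± 60.9 in shControl and 872 ± 104 in shRNF25, and moved from rank 2 to rank 1 among the channel genes. KCNK1 stood at 460.3 ± 24.7 in shControl and 432 ± 20.6 in shRNF25, and moved from rank 1 to rank 2. The ranges of these 2 genes did not overlap in either group, KCNK1 being above KCNN4 in every control library and below it in every shRNF25 library. KCNMA1 followed with 168 ± 36.2 in shControl and 202 ± 3.29 in shRNF25, CACNB3 with 209.7 ± 34.5 in shControl and 155 ± 3.28 in shRNF25 and KCNS3 with 204 ± 50.7 in shControl and 136 ± 4.86 in shRNF25. In shControl each neighboring pair of ranks 2 to 6, in the order KCNN4, CACNB3, KCNS3, KCNAB2 and KCNMA1, differed in its means by less than the SD of either gene, while KCNN4 and KCNMA1 at the ends differed by more than their SDs, whereas in shRNF25 KCNMA1, CACNB3 and KCNS3 were separated by more than their SDs.

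**Figure D3:**
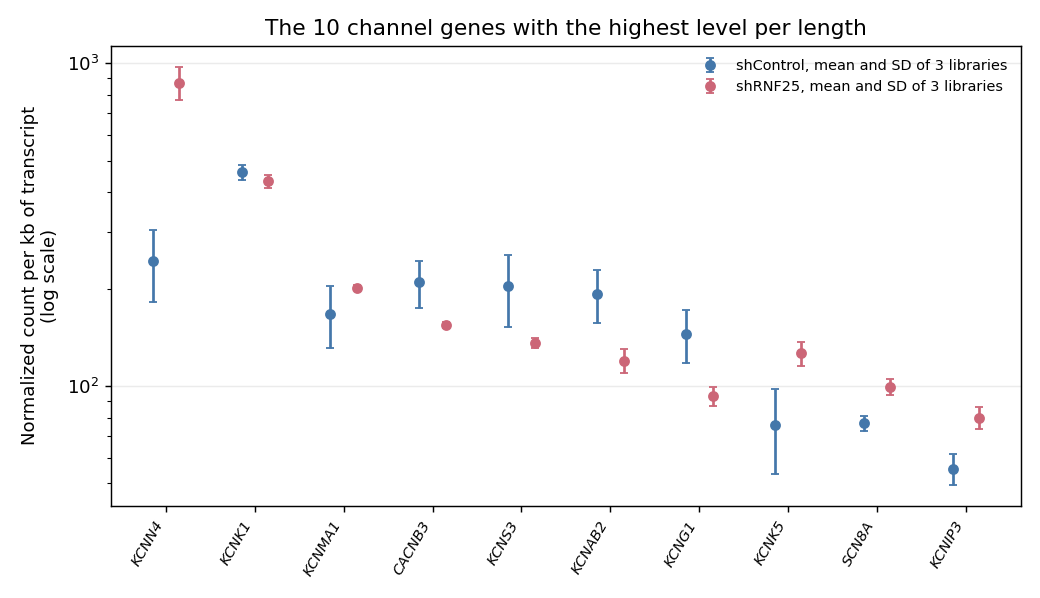
The vertical axis gives the normalized count per kb of transcript on a log scale for the 10 channel genes with the highest level over all 6 libraries, as the mean and SD of 3 shControl (blue) and 3 shRNF25 (red) libraries. KCNN4 rises from 244 to 872, above KCNK1.

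The summed normalized count of all 112 channel genes was 10261, 11044 and 12116 in shControl and 13277, 12615 and 12320 in shRNF25. Without KCNN4 the sums were 9832, 10347 and 11600 in shControl and 11054, 10758 and 10531 in shRNF25, and the groups then overlapped. Of the 15 genes called higher, 10 had a mean below 50 in shControl and below 100 in shRNF25.

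The 56 untested genes were of low level throughout, with at most 30 reads in any library, and 24 of them had 3 reads or fewer in every library. Between 39 and 41 of them had a read in the shControl libraries and between 45 and 49 in the shRNF25 libraries. Their summed values were 132, 111 and 171 in shControl and 196, 176 and 157 in shRNF25, so that the groups overlapped. The G-protein-gated rectifier KCNJ3 had 1 read in the controls together and 19 in shRNF25, a ratio of 16.5 with an exact 95% counting interval from 2.62 to 686. KCND3 had 2 reads and 12, a ratio of 5.21 with an interval from 1.16 to 48, and KCNE4 had 1 read and 10, a ratio of 8.69 with an interval from 1.24 to 377. KCNJ3 and KCND3 were chosen after their values were seen, and the intervals cover counting error only.

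Other genes of ion transport were taken from 6 lists of partners, other cation channels, calcium handling, anion channels, the sodium-potassium pump and the REST repressor complex. Of 133 listed genes in the table, 95 were tested, 13 were called higher and 7 lower, and the median log2 fold change was 0.06. Calls in either direction made up 21.05% of these tested genes, beside 15.75% of all tested genes (8.65% higher and 7.1% lower). By list this was 16.67% of the partners, 23.08% of the other cation channels and 20% of the calcium handling genes. It was 25% of the anion channels and 40% of the 5 tested pump genes. These differences were not tested. Of the 18 tested partners and direct regulators, 2 were called higher and 1 lower. FGF14, which binds the tail of sodium channel pores, had 25.4, 17.4 and 11.9 in shControl and 57.4, 44.3 and 52.4 in shRNF25, a 2.82-fold rise of the mean (adjusted p = 0.00714). RRAD, a small GTP-binding protein that holds calcium channel pores back through their β subunits, had 38.7, 65.7 and 63.7 in shControl and 19.1, 16.6 and 16.2 in shRNF25 (log2 fold change -1.60, SE 0.26, adjusted p = 0.00319). The groups did not overlap for either gene.

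Of 26 tested other cation channels, 3 were called higher and 3 lower. CNGA1, a cyclic-nucleotide-gated pore of photoreceptors, had 34.3, 39 and 43.2 in shControl and 142, 109.9 and 112 in shRNF25 (log2 fold change 1.62, SE 0.19, adjusted p = 0.000576), and its partner subunit CNGB1 had 16.6, 21.6 and 14 in shControl and 3.65, 3.69 and 1.91 in shRNF25 (log2 fold change -2.19, SE 0.37, adjusted p = 0.00365). The 2 subunits of this channel thus had calls in opposite directions. CNGB1 reached the limit for testing through shControl alone, with 49 reads in shControl and 10 in shRNF25. HCN2, a pacemaker channel, rose to 28.2, 35.1 and 34.3 from 12.2, 5.13 and 18.4 (log2 fold change 1.53, SE 0.40, adjusted p = 0.0268), and its adjusted p was 0.0793, 0.0967 and 0.0981 without shRNF25 replicates 1, 2 and 3. The lysosomal TPCN1 fell to 1581, 1419 and 1401 from 2949, 3027 and 4528 (log2 fold change -1.23, SE 0.16, adjusted p = 0.00119), and the osmosensitive TRPV4 fell to 107, 91.4 and 108 from 181, 172 and 206 (log2 fold change -0.87, SE 0.15, adjusted p = 0.0043).

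The anion channels had 6 of 24 tested genes called higher and 0 called lower, while 14 had a log2 fold change above 0 and 10 below. CLCN1, the chloride channel of skeletal muscle, had 0, 6.16 and 12.9 in shControl and 62.9, 71.1 and 38.1 in shRNF25 (log2 fold change 3.61, SE 0.81, adjusted p = 0.0137), with no read in shControl replicate 1 and an adjusted p of 0.0632 and 0.0554 without shRNF25 replicates 1 and 2. CLCA2, a regulator of calcium-activated chloride conductance, had 6.63, 5.13 and 3.24 in shControl and 39.2, 24.9 and 44.8 in shRNF25 (log2 fold change 2.64, SE 0.35, adjusted p = 0.00115). CLCA2 reached the limit for testing through shRNF25 alone. Of 15 tested calcium handling genes 2 were called higher and 1 lower, and of 5 tested pump genes 2 were called lower, among them FXYD5, a regulatory subunit of the pump, with 5202, 2262 and 2572 in shControl and 1568, 1799 and 1598 in shRNF25 (log2 fold change -0.92, SE 0.27, adjusted p = 0.038). The FXYD5 call was lost without shRNF25 replicates 1, 2 and 3, at adjusted p of 0.132, 0.0843 and 0.118. None of the 7 genes of the REST complex was called by limma, edgeR or DESeq2, and 3 had an unadjusted p below 0.05. REST, a repressor of neuronal genes that include channels, had 795, 551 and 676 in shControl and 743, 692 and 716 in shRNF25 (log2 fold change 0.10, SE 0.14, adjusted p = 0.641), and the groups overlapped. Its cofactors KDM1A (log2 fold change -0.54, adjusted p = 0.00653) and HDAC1 (log2 fold change 0.49, adjusted p = 0.0203) passed the p threshold but not the fold, and that of HDAC1 lay between 0.0748 and 0.101 without any 1 of the shRNF25 libraries.

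Since many channel genes are known from nerve and muscle, markers of other cells were read beside them. Of the neuron markers, 10 were in the table and 5 tested, and 1 was called higher, the neurofilament gene NEFL, at 172, 132 and 324 in shControl and 1432, 1536 and 1532 in shRNF25 (log2 fold change 2.94, SE 0.27, adjusted p = 0.000176). The summed neuron markers ranged from 354 to 628 in shControl and from 1742 to 1875 in shRNF25. Without NEFL the ranges were 222 to 310 and 310 to 339. The markers did not all rise. TUBB3 and MAP2 were tested and not called, with log2 fold changes of 0.24 and -0.17. NEFM, too low to be tested, had 9.95, 9.23 and 6.48 in shControl and 5.47, 4.62 and 5.72 in shRNF25, without overlap. ELAVL4, also untested, had means of 7.85 in shControl and 7.69 in shRNF25. The synaptic marker SYT1 had 73, 41 and 75.5 in shControl and 101, 104 and 105 in shRNF25 (adjusted p = 0.0539) and the nuclear marker RBFOX3 11.1, 17.4 and 16.2 in shControl and 21.9, 27.7 and 34.3 in shRNF25 (adjusted p = 0.0628), both without overlap and neither called, while SNAP25 had at most 1 read in any library. Of the striated muscle markers, 6 were in the table and 3 tested, with TNNT2 called higher at 5.53, 14.4 and 24.8 in shControl and 54.7, 55.4 and 54.3 in shRNF25 (log2 fold change 2.02, SE 0.44, adjusted p = 0.0111, and 0.0524 without shRNF25 replicate 1). TTN, at 198, 148 and 215 in shControl and 278, 275 and 276 in shRNF25, passed the p threshold but not the fold (log2 fold change 0.58, adjusted p = 0.0321), TNNI3 had 39.8, 56.4 and 56.1 in shControl and 41.9, 55.4 and 41.9 in shRNF25 and was not called, and MYH7 had at most 1 read in any library. Their sums ranged from 221 to 299 in shControl and from 374 to 389 in shRNF25. The part of these markers in the channel results was not tested.

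Of the kidney markers, 11 were in the table and 8 tested, and the single call was VIM, higher in shRNF25 (log2 fold change 1.31, adjusted p = 0.00805). Their sums ranged from 46838 to 57613 in shControl and from 60447 to 64667 in shRNF25, most of it KRT8 and KRT18, and without these 2 genes from 7899 to 8864 and from 7512 to 7868. Of the 8 tested markers, 4 had a log2 fold change above 0 and 4 below, with a median of -0.06. The endothelial list gave 1 lower gene, CDH5, at 73, 103 and 199 in shControl and 3.65, 8.31 and 5.72 in shRNF25, and 1 higher gene, KDR, at 26.5, 29.8 and 17.3 in shControl and 88.4, 81.3 and 83.9 in shRNF25, with summed values overlapping between the groups. CDH5 reached the limit for testing through shControl alone. None of the 4 tested fibroblast and smooth muscle markers was called by limma, edgeR or DESeq2 (1 with an unadjusted p below 0.05), nor was the single tested leukocyte marker. In these bulk libraries, fewer cells with a transcript and less of it per cell cannot be told apart.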

How the data were processed

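Total RNA of SW839 cells, depleted of ribosomal RNA, was sequenced from stranded libraries, 3 of shControl and 3 of shRNF25. The authors deposited a normalized count per gene and library, a signal that is the read count divided by a size factor. The submitters' processing notes name fastp, HISAT2, HTSeq and the build GRCh38. Versions, annotation and whether reads were counted by strand are not given in the sources used here, so reads from genes that overlap on opposite strands may be mixed. Whole reads came back for 100% of values within 0.01 reads, the scaling factors equaled DESeq2 size factors, and depth was 18647460 to 19943154 reads on genes.

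The deposited values were not rescaled. They were taken as log2(normalized count + 1), genes that reached 10 in 3 or more libraries entered the test (16554 of 30267), and limma 3.58.1 in R 4.3.3 compared the groups with a trend and without covariates, with Benjamini-Hochberg adjustment over all tested genes. The code was tested on simulated data. A fold change on this scale understates the change of low genes. The smallest p of an exact permutation test of 3 against 3 libraries is 0.1, so none is printed for single genes. Alternatives were pseudocounts of 0.5 and 5, no filter, a filter of 50, a fold limit of 2, quantiles, a new scaling by the median ratio of genes averaging 100 or more, a block for the replicate number, fits that each omitted 1 library, and the recovered reads in edgeR 4.0.16 and in DESeq2 1.42.0. Positions, overlaps and transcript lengths came from GENCODE 29.

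Genes named were RNF25, all called channel genes, the 10 channel genes with the highest level per length, 32 channel genes known from kidney, the 5 most changed called genes of the related lists in each direction, and genes that stayed at 3 reads or fewer throughout 1 group and exceeded 10 throughout the other. The remaining channel genes in the text, such as SCN3A, SCN4B, KCNF1, KCNJ12 and CACNG4, and the overlapping genes were named after their values were seen. Some genes that the rule would name are counted but not reported here. The members and lists were chosen with earlier results of these data known. P-values set the difference between the groups against the spread among the libraries within them, and do not cover other hairpins or cell lines.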

Additional observations from a re-analysis of the deposited data

How the results depend on the processing

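Calls of channel genes were lost most often when an shRNF25 library was left out, and no called channel gene changed direction in any alternative. The log2 values of the shRNF25 libraries correlated with each other at 0.9941 to 0.9944, and those of the shControl libraries at 0.9761 to 0.9875. The part of this unequal spread in the lost calls was not tested. The count of channel genes called higher was 15 and lower 6 with all libraries. Leaving out 1 library at a time gave 7 to 16 higher and 3 to 7 lower, with 7 higher without any 1 of the shRNF25 replicates. Of the 21 called genes, 11, 10 and 10 kept the call without shRNF25 replicates 1, 2 and 3, and 19, 15 and 20 without shControl replicates 1, 2 and 3. A filter of 50 normalized counts left 13 of the 21 in the test and gave 7 higher and 5 lower. Over all genes the same filter gave 898 higher and 987 lower of 12755 tested. The shares of channel genes and of all genes were not compared at this filter. DESeq2 kept all 21, edgeR and a pseudocount of 0.5 kept 20. The deviations of same-numbered libraries from their group means correlated at -0.06, -0.09 and 0.05, and those of differently numbered libraries at -0.14 to 0.18. Since each group mean rests on 3 libraries, these correlations cannot exclude a pairing of the samples. With the replicate number as a block 13 were higher and 6 lower, KCND1 being among the calls lost (adjusted p = 0.0521 by limma). Over the related ion transport genes, 13 higher and 7 lower became 7 higher and 3 lower at a fold change of at least 2, 8 higher with the filter of 50, and 7 to 17 higher when 1 library was left out. Among genes that were not called, KCNG3 changed sign under quantile normalization (-0.084) and with 1 library left out (-0.022 to 0.18), as did CACNG4 (-0.19 to 0.29) and REST (-0.033 to 0.23) with 1 library left out. CACNA1A changed sign on rescaling (0.028) and with 1 library left out (-0.38 to 0.40), and SCN9A did so when 1 library was left out (-0.14 without shControl replicate 2 to 0.37 without shControl replicate 3). Genes with few reads limit these results, because 56 of 112 channel genes were too low to be tested.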
